A study of Mus musculus with 9 samples.

Results

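Kinesin, cytoplasmic dynein and dynactin genes were taken as the protein-coding mouse genes whose symbol is Kif followed by a number or begins with Klc, Dync, Dynl or Dctn. The rule found 64 such genes in the RefSeq gene table, against 21254 protein-coding genes with a transcript row in the deposited counts, and left out 4 symbols of the same form that are noncoding genes or pseudogenes. *Kif28* had no row, *Kif2b* had 0 counts in every library and *Kif12* had between 0 and 8 counts per library. The other 61 passed the filter of at least 0.5 CPM (counts scaled to the effective library size of protein-coding genes) in at least 3 of the 9 libraries and are the members described here. They comprised 15 transport kinesin heavy chains, 11 mitotic kinesins, 9 other kinesins, 4 kinesin light chains, 5 heavy, intermediate and light intermediate chains of cytoplasmic dynein-1, 2 chains of dynein-2, 9 dynein light chains and 6 dynactin subunits. The intermediate chains of dynein-2 are listed in the table under the older symbols *Wdr60* and *Wdr34* and fall outside the rule.

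The libraries came from RNA immunoprecipitation-sequencing (RIP-seq), in which an antibody pulls down a protein and the RNA that comes with it is sequenced. All 9 libraries held cytoplasmic RNA of cortical lysates from mice heterozygous for the CELF2 p.R493H knock-in (KI) allele at postnatal day 0. The 3 CELF2-KI RIP libraries used 10 µg of a rabbit antibody to CELF2 for 3 hours at 4°C, the 3 IgG RIP libraries used the same amount of normal rabbit IgG, and the 3 input libraries held RNA of an aliquot kept back before the antibody. Every group therefore carried the same KI allele beside a normal one, no wild-type library was compared, and the labels list neurons, radial glia, astrocytes, oligodendrocyte precursors, microglia and endothelial cells together as the source.

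Kinesins are motors that carry cargo along microtubules, most of them toward the plus end, and cytoplasmic dynein carries cargo toward the minus end with the help of dynactin. In neurons the heavy chains of a few kinesin families move vesicles, mitochondria and RNA granules along axons and dendrites, whereas in dividing cells another set of kinesins builds the spindle, aligns chromosomes and drives cytokinesis. CELF2 is an RNA-binding protein with a preference for GU-rich sequence that acts in splicing, mRNA stability and translation.

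Total estimated counts ranged over 15919600 to 20052716 in the CELF2-KI RIPs, 17365561 to 28773130 with IgG and 69125700 to 105116427 for input. Transcript rows without a gene in the table held 11.6% to 12.6% of the counts in the CELF2-KI RIPs, 21.1% to 43.5% with IgG and 9.24% to 9.75% for input. The factors by which TMM (the trimmed mean of M-values, which scales libraries to a common middle) adjusted library size were 0.771 to 0.878 in CELF2-KI RIP and 1.05 to 1.16 in the 6 controls, so folds over the controls depend on that scaling. Fitted log2 fold changes of all 15267 tested genes had a median of -0.06 over IgG RIP, against -0.42 when libraries were scaled by total counts of protein-coding genes alone. Input was an aliquot of the cytoplasmic fraction from which the pull-downs were made. Since the libraries are bulk, a difference between groups cannot be assigned to a cell type. Counts are not divided by transcript length, so levels are compared between libraries and not between genes.

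CELF2-KI RIP was first compared with IgG RIP, which shows what the beads and a rabbit antibody bring down without CELF2 as the target. A gene was called where the Benjamini-Hochberg adjusted p (FDR) of edgeR's quasi-likelihood test was under 0.01 and the fitted change was at least 2-fold. Of the 61 members, 4 were called higher (*Dynll2*, *Kif3c*, *Dynll1* and *Dctn5*) and 8 lower (*Dctn2*, *Dctn3*, *Dynlt1c*, *Dynlrb1*, *Klc2*, *Klc3*, *Kif4* and *Kif23*). Among all tested genes 13.4% were called higher and 13.6% lower, so the share of members called higher (6.56%) was below that background and the share called lower (13.1%) was near it. The members' median log2 fold change over IgG RIP was -0.20. With libraries scaled by total counts instead, 1 of the 61 members was higher and 14 were lower, beside 937 and 3421 of all 15267 tested genes.

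Over input, which shows the cytoplasmic RNA before any pull-down, 12 members were called higher in CELF2-KI RIP and 6 lower, against 14.6% and 15.5% of all tested genes. The 12 were *Kif1b*, *Kif1c*, *Kif3c*, *Kif5c*, *Kif13a*, *Kif13b*, *Kif21a*, *Kif26a*, *Kif7*, *Kif14*, *Dync1li2* and *Dynll2*. The 6 were *Dctn2*, *Dctn3*, *Dynlrb1*, *Dynlt1b*, *Dynlt1c* and *Klc2*. The members' median log2 fold change was 0.18, beside 0.19 for all tested genes. Scaling by total counts gave 2 members higher and 12 lower, beside 531 and 3581 of all 15267 tested genes.

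In the third comparison, IgG RIP over input, 6 members were higher (*Dync1h1*, *Dync2h1*, *Dctn1*, *Kif7*, *Kif13b* and *Kif14*) and 4 were lower (*Dynll1*, *Dynlt3*, *Dynlt1b* and *Dynlrb1*), against 6.79% and 5.0% of all tested genes. The 3 comparisons share libraries, so their values are set side by side and not treated as separate evidence.

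Against both controls at once, the condition the study used to define a target, CELF2-KI RIP was higher for 2 members, *Dynll2* and *Kif3c*, and lower for 5, *Dctn2*, *Dctn3*, *Dynlrb1*, *Dynlt1c* and *Klc2*. Among all tested genes 7.58% were higher than both controls and 9.54% lower. Scaling by total counts gave 1 member higher and 10 lower, and the share of all tested genes under that scaling was not computed. For 16 members each CELF2-KI RIP library exceeded every control, 26.2% of the 61 beside 25.2% of all tested genes, and for 9 members each was below every control, 14.8% beside 19.9%.

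**Figure D1:**
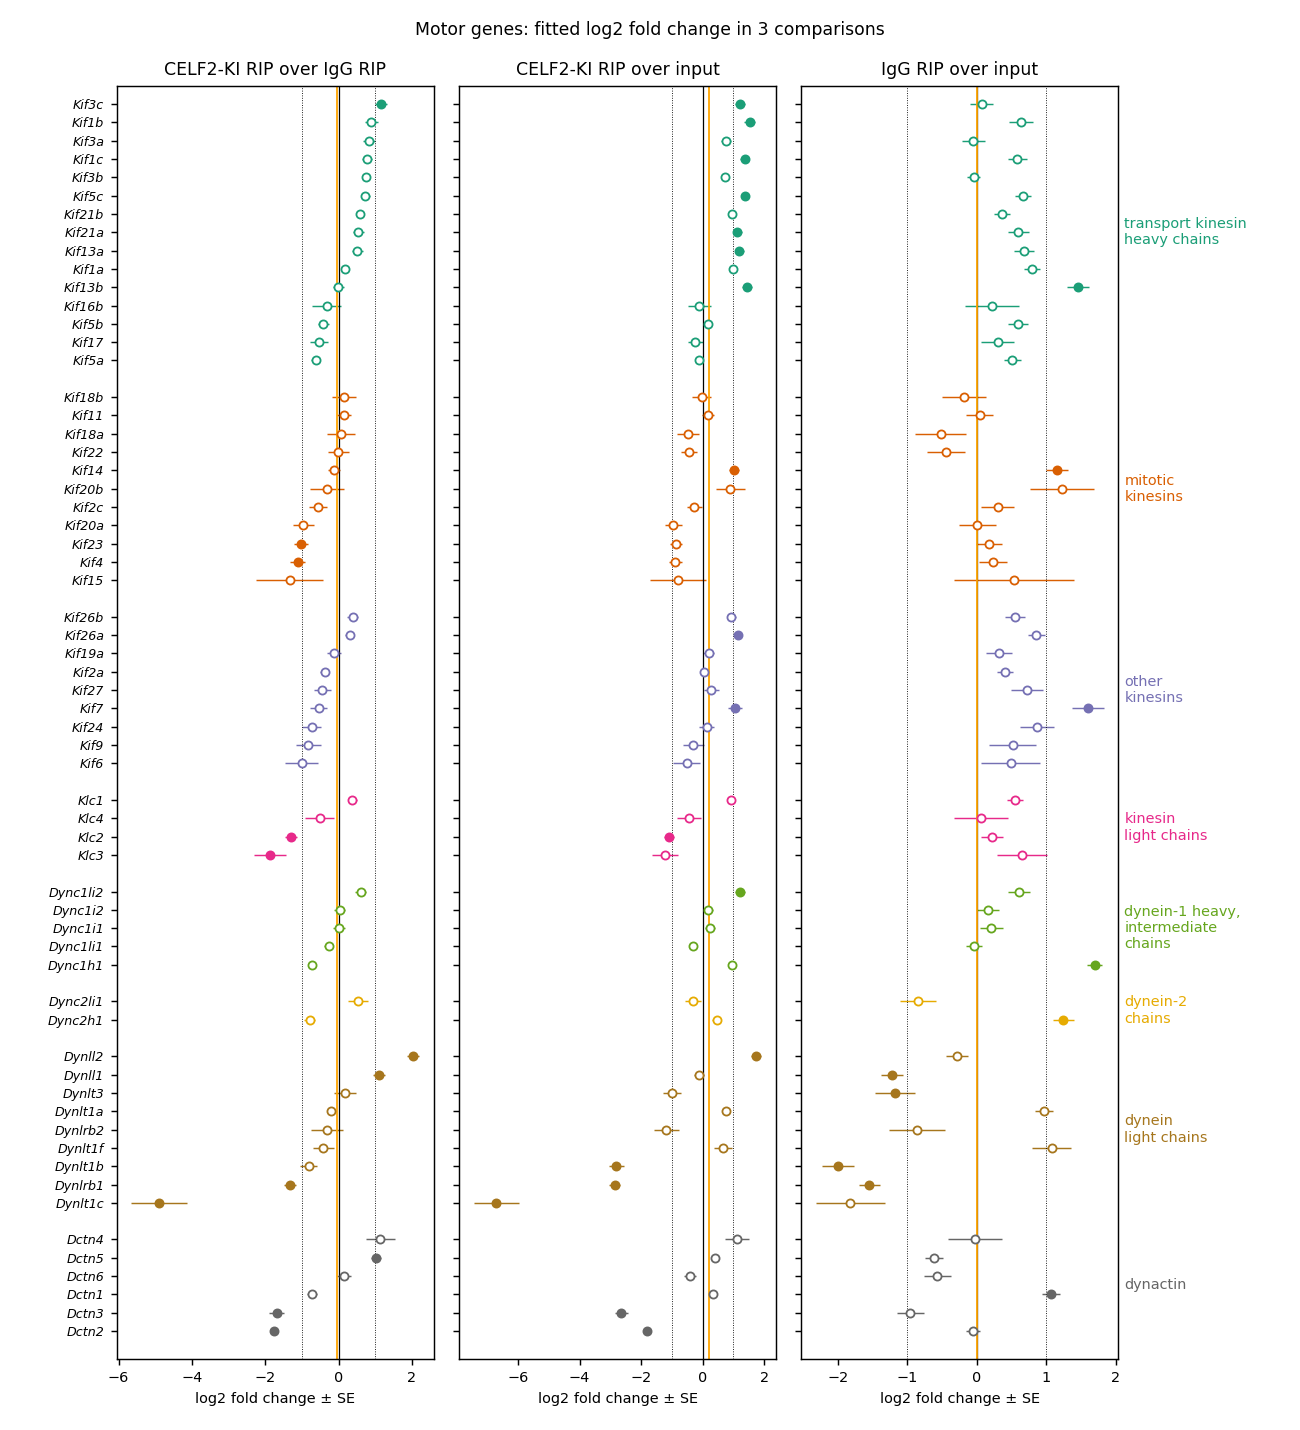
Fitted log2 fold change ± SE of the 61 tested motor genes in 3 comparisons, grouped by role and sorted by the change over IgG RIP; filled points were called (FDR under 0.01 and at least 2-fold), dotted lines mark a 2-fold change and the orange line is the median of all 15267 tested genes. Filled points right of 1 over both IgG RIP and input are those of *Dynll2* and *Kif3c*. Most transport kinesins sit right of the orange line in all 3 panels, that of IgG RIP over input included.

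Transport kinesin heavy chains were the members with the highest changes as a group. The median of their log2 fold changes was 0.53 over IgG RIP and 0.98 over input, beside -0.06 and 0.19 for all tested genes. Relative to these the medians were 0.58 and 0.78, and 10 of the 15 had a value above 0 over IgG RIP. In IgG RIP over input the group's median was 0.58, beside -0.004 for all tested genes, and 13 of the 15 were above 0. Part of the rise over input was thus also seen with IgG. By the call rule 1 of the 15 (6.67%) was higher over IgG RIP and 7 (46.7%) were higher over input. The shares of all tested genes were 13.4% and 14.6%. In either comparison 0 were lower. In 9 of the 15 (60.0%) no CELF2-KI RIP library was as low as any control, beside 25.2% of all tested genes.

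*Kif3c* (chr12:3365132-3406494 in mm10), a kinesin-2 motor abundant in neurons, was the transport kinesin called against both controls. It was counted at 529, 879 and 703 CPM in the CELF2-KI RIPs, against 299, 309 and 345 with IgG and 293, 284 and 333 for input. Every CELF2-KI RIP library was above every control, and IgG RIP and input overlapped. The log2 fold change was 1.15 ± 0.17 (SE) over IgG RIP (FDR 0.000257) and 1.21 ± 0.17 (SE) over input (FDR 0.000155). Its call over IgG RIP was lost without CELF2-KI RIP replicate 2, the library with its highest value, where the log2 fold change was 0.95, and under TMMwsp, upper quartile and total-count scaling (0.93, 0.88 and 0.76). Under the same scalings its call over input was lost as well (0.99, 0.97 and 0.74), and so it was with only the 2 conditions (0.98). The other kinesin-2 motors, *Kif3a* and *Kif3b*, which pair with each other to carry vesicles and ciliary cargo, did not reach a 2-fold change. *Kif3a* was at 142, 228 and 177 CPM in the CELF2-KI RIPs, against 111, 88.2 and 111 with IgG and 111, 105 and 105 for input. *Kif3b* was at 162, 162 and 176 CPM in the CELF2-KI RIPs, against 104, 96.3 and 95.4 with IgG and 102, 99.2 and 104 for input. For both genes no CELF2-KI RIP library was as low as any control, with log2 fold changes over IgG RIP of 0.82 ± 0.17 (SE) and 0.76 ± 0.09 (SE).

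The 3 kinesin-1 heavy chains, which carry mitochondria, vesicles and RNA granules into axons, differed among themselves. *Kif5c* (chr2:49619286-49774778) was at 1361, 1764 and 1539 CPM in the CELF2-KI RIPs, against 995, 839 and 999 with IgG and 628, 576 and 585 for input. CELF2-KI RIP was the highest group without overlap and input the lowest, and the log2 fold change was 0.72 ± 0.12 (SE) over IgG RIP (FDR 0.000625, under 2-fold) and 1.38 ± 0.12 (SE) over input (FDR 1.22e-05). *Kif5a* (chr10:127225695-127266348) went the other way against IgG RIP, at 432, 349 and 443 CPM in the CELF2-KI RIPs, against 663, 591 and 642 with IgG and 438, 399.5 and 497 for input. Its CELF2-KI RIP libraries were all below the IgG RIP libraries and overlapped with input, with log2 fold changes of -0.63 ± 0.12 (SE) (FDR 0.00167, under 2-fold) and -0.12 ± 0.12 (SE). *Kif5b*, the form found in most tissues, was at 117, 112 and 138 CPM in the CELF2-KI RIPs, against 174, 133 and 183 with IgG and 114, 113 and 98.2 for input. Its CELF2-KI RIP libraries overlapped both controls.

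*Kif1a*, *Kif1b* and *Kif1c* are kinesin-3 motors, of which *Kif1a* and *Kif1b* carry synaptic vesicle precursors. *Kif1b*, the transport kinesin with the highest mean CPM, was at 2647, 4566 and 3267 CPM in the CELF2-KI RIPs, against 1968, 1735 and 1936 with IgG and 1253, 1144 and 1238 for input. CELF2-KI RIP exceeded every control, replicate 2 by most, and the log2 fold change was 0.89 ± 0.17 (SE) over IgG RIP (FDR 0.00151, under 2-fold) and 1.53 ± 0.18 (SE) over input (FDR 5.03e-05). *Kif1c* was at 138, 172 and 166 CPM in the CELF2-KI RIPs, against 92.9, 107 and 77.9 with IgG and 58.1, 62.8 and 64.4 for input, again with no overlap, and changed by 1.36 ± 0.14 (SE) over input on the log2 scale (FDR 2.55e-05). *Kif1a* was at 1956, 2062 and 2184 CPM in the CELF2-KI RIPs, against 2022, 1746 and 1693 with IgG and 1041, 961 and 1151 for input. Both pull-downs held more of it than input, with log2 fold changes of 0.98 and 0.79 that missed the 2-fold threshold, and they overlapped with each other.

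Among the remaining transport kinesins, *Kif13a*, *Kif13b* and *Kif21a* were called over input. *Kif13b*, a kinesin-3 motor that binds membrane scaffolds, was at 105, 145 and 129.5 CPM in the CELF2-KI RIPs, against 151, 120.1 and 110.4 with IgG and 43.6, 45.4 and 50.4 for input. The 2 pull-downs overlapped and both lay above input, with log2 fold changes of -0.01 ± 0.16 (SE) over IgG RIP, 1.44 ± 0.16 (SE) over input (FDR 3.68e-05) and 1.45 ± 0.16 (SE) in IgG RIP over input (FDR 0.000211). *Kif13a*, which carries endosomal cargo, was at 96.1, 131 and 125 CPM in the CELF2-KI RIPs, against 96.1, 73.4 and 77.5 with IgG and 52.2, 49.6 and 52.9 for input. The lowest CELF2-KI RIP library and the highest IgG RIP library nearly met, and input was lower than both. Its log2 fold change was 1.19 ± 0.15 (SE) over input (FDR 7.6e-05) and 0.51 ± 0.15 (SE) over IgG RIP. The call of *Kif13a* over input held in all 9 fits that left out a library and in 6 of 11 other settings. *Kif21a*, a kinesin-4 motor that restrains microtubule growth, changed by 1.12 ± 0.15 (SE) over input (FDR 0.000119), a call lost without input replicate 2 (0.98) and kept in 3 of 11 other settings. Its paralog *Kif21b* had log2 fold changes of 0.58 and 0.94, under the 2-fold threshold. The remaining transport kinesins, the dendritic motor *Kif17* and the endosomal motor *Kif16b*, were at -0.55 and -0.32 over IgG RIP.

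Mitotic kinesins moved differently. The median over the group was -0.32 over IgG RIP and -0.45 over input on the log2 scale. In each comparison 3 of the 11 had a value above 0. Over IgG RIP 2 were called lower (18.2%, beside 13.6% of all tested genes). Over input 1 was called higher (9.09%, beside 14.6%). Against both controls 0 were called in the same direction, beside 7.58% of all tested genes higher and 9.54% lower. Relative to all tested genes the median over IgG RIP was -0.27, and it was -0.69 without IgG RIP replicate 1 and -0.085 without IgG RIP replicate 2. Their levels were low, with mean CPM in IgG RIP between 1.81 and 16.1.

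*Kif4* (chrX:100626065-100727271), a chromokinesin that organizes the central spindle, was at 7.44, 5.0 and 6.16 CPM in the CELF2-KI RIPs, against 16.2, 11.3 and 12.8 with IgG and 12.6, 11.7 and 10.2 for input. *Kif23* (chr9:61917277-61946810), a subunit of the centralspindlin complex of cytokinesis, was at 3.60, 3.77 and 4.55 CPM in the CELF2-KI RIPs, against 8.82, 7.93 and 7.60 with IgG and 7.50, 7.86 and 6.16 for input. For both genes the 3 CELF2-KI RIP libraries were below all 6 controls. The log2 fold change over IgG RIP was -1.12 ± 0.21 (SE) for *Kif4* (FDR 0.00111) and -1.03 ± 0.20 (SE) for *Kif23* (FDR 0.0014), and over input it was -0.89 and -0.85, short of 2-fold. Both calls lie near the fold threshold: *Kif4* was -0.99 without CELF2-KI RIP replicate 2 and -0.97 without IgG RIP replicate 1, and *Kif23* was between -0.997 and -0.97 without either of those libraries or CELF2-KI RIP replicate 1.

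*Kif11*, the motor that pushes spindle poles apart and the mitotic kinesin with the highest mean CPM, was at 21.0, 15.9 and 16.7 CPM in the CELF2-KI RIPs, against 18.7, 16.1 and 13.5 with IgG and 18.0, 16.8 and 12.2 for input. Its 3 groups overlapped, and the log2 fold change was 0.15 ± 0.20 (SE) over IgG RIP. *Kif14*, a motor of cytokinesis, was at 10.5, 12.2 and 9.73 CPM in the CELF2-KI RIPs, against 11.8, 12.4 and 11.5 with IgG and 5.45, 5.82 and 4.75 for input. Both pull-downs lay above input without overlap and overlapped with each other, with log2 fold changes of 1.01 ± 0.16 (SE) for CELF2-KI RIP over input (FDR 0.000397), 1.15 ± 0.16 (SE) for IgG RIP over input (FDR 0.000624) and -0.14 between the pull-downs. *Kif14* was not called over input without CELF2-KI RIP replicate 2 (0.92), input replicate 2 (0.97) or input replicate 3 (0.93), and kept this call in 2 of 11 other settings. *Kif15*, a second spindle motor, had the lowest log2 fold change of the group over IgG RIP, -1.34 ± 0.91 (SE) (FDR 0.242), and was at 3.44, 2.69 and 3.75 CPM in the CELF2-KI RIPs, against 10.6, 0 and 14.0 with IgG and 6.72, 6.52 and 3.96 for input. The spread comes from IgG RIP, where replicate 2 had 0 and the other 2 libraries were the highest of all 9. Without that library *Kif15* was called lower over IgG RIP (-1.89, FDR 0.000741), and in a fit of only CELF2-KI RIP and input it was called lower over input (-1.03, FDR 0.00705). The other 6 mitotic kinesins (*Kif2c*, *Kif18a*, *Kif18b*, *Kif20a*, *Kif20b* and *Kif22*) had log2 fold changes over IgG RIP between -0.96 and 0.15, with CELF2-KI RIP libraries that overlapped with IgG RIP.

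The mitotic and transport kinesins were then compared within each library, since a ratio within a library does not depend on how libraries are scaled to each other. The 15 transport kinesins summed to 9422, 12350 and 11080 CPM in the CELF2-KI RIPs, against 7967, 7092 and 7486 with IgG and 5089, 4709 and 5361 for input. The 11 mitotic kinesins summed to 79.7, 68.2 and 65.4 CPM in the CELF2-KI RIPs, against 106.6, 86.7 and 89.2 with IgG and 91.1, 87.0 and 71.3 for input. Transport sums did not overlap between any of the 3 groups, and mitotic sums of CELF2-KI RIP were below IgG RIP and overlapped with input. The log2 ratio of transport to mitotic sums was 7.26 ± 0.33 in the CELF2-KI RIPs, 6.32 ± 0.09 with IgG and 5.93 ± 0.26 for input (mean ± SD, n = 3 each), and every CELF2-KI RIP library exceeded every control. Without the member with the most counts in each group (*Kif1b* and *Kif11*) the ratios were 7.13 ± 0.25, 6.18 ± 0.08 and 5.84 ± 0.25.

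Markers of dividing cells gave other values than the mitotic kinesins. All 14 markers were tested, and their sums were 179.9 to 253.9 CPM in the CELF2-KI RIPs, 232.1 to 291.5 with IgG and 209.0 to 272.8 for input. The median of their log2 fold changes over IgG RIP was 0.03, with *Aurka* (1.35) and *Cdk1* (1.31) called higher and *Mki67* (-1.75) lower. These were 14.3% and 7.14% of the 14, beside 13.4% and 13.6% of all tested genes. The 10 markers of excitatory neurons had a median of 0.46 over IgG RIP, with 4 called higher (40.0%) and 0 lower. Their sums were 2783 to 3435 CPM in the CELF2-KI RIPs, 2358 to 2606 with IgG and 2144 to 2408 for input. Whether the sources of RNA in each pull-down had a part in the kinesin values was not tested.

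**Figure D2:**
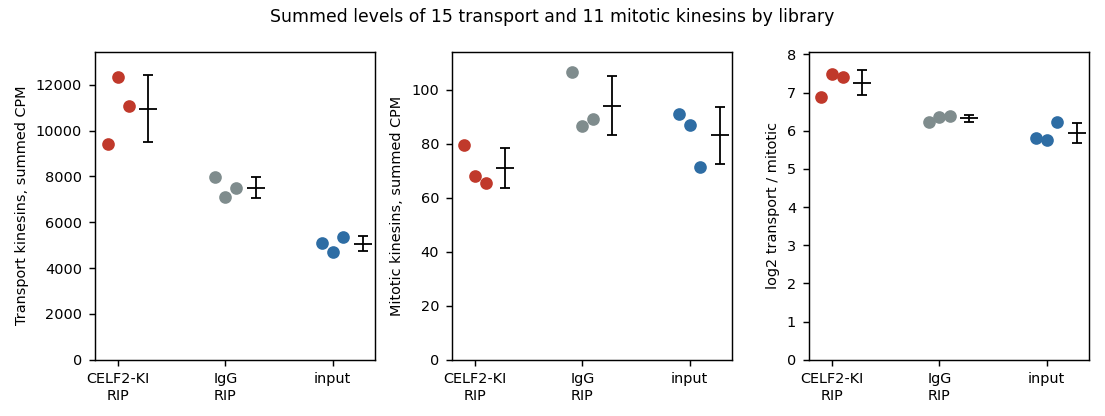
Summed CPM of 15 transport kinesins (left) and 11 mitotic kinesins (middle) and their log2 ratio (right) in each of 9 libraries; points are libraries and bars are mean ± SD of 3. The ratio is between 6.89 and 7.50 in the CELF2-KI RIP libraries, above the 6 controls at 5.76 to 6.39.

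The 9 other kinesins include motors of cilia, regulators of microtubule ends and members that act in signaling. By the call rule 0 changed over IgG RIP, beside 13.4% of all tested genes higher and 13.6% lower. The median log2 fold change of the group was -0.44 there. Over input 2 were higher (22.2%, beside 14.6% of all tested genes), and the median was 0.19. *Kif26a*, a kinesin without motor activity that acts in neuron development, was at 260.1, 285 and 337 CPM in the CELF2-KI RIPs, against 245, 249 and 219.8 with IgG and 127, 123 and 145 for input. CELF2-KI RIP was highest and input lowest without overlap, and the log2 fold change was 1.16 ± 0.12 (SE) over input (FDR 3.16e-05) and 0.30 ± 0.12 (SE) over IgG RIP. The call over input was lost without input replicate 2, at 0.998, and was kept in 6 of 11 other settings. *Kif7*, which regulates Hedgehog signaling at the tip of the cilium, was at 18.8, 15.5 and 22.6 CPM in the CELF2-KI RIPs, against 31.2, 27.3 and 24.6 with IgG and 10.2, 6.28 and 11.1 for input. Here the IgG RIP libraries were highest: the log2 fold change was 1.59 ± 0.23 (SE) in IgG RIP over input (FDR 0.000692), 1.04 ± 0.23 (SE) in CELF2-KI RIP over input (FDR 0.00276) and -0.55 between the pull-downs. Its call in CELF2-KI RIP over input was lost without CELF2-KI RIP replicate 3 (0.90) or input replicate 2 (0.72), and it was kept in 3 of 11 other settings. The extremes over IgG RIP were *Kif26b* at 0.38 and the ciliary kinesin *Kif6* at -1.01, neither called.

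Kinesin light chains link the kinesin-1 heavy chains to cargo. *Klc2* (chr19:5107746-5118298) was at 34.2, 26.7 and 24.7 CPM in the CELF2-KI RIPs, against 74.8, 76.2 and 60.1 with IgG and 58.8, 53.9 and 68.8 for input. All 3 CELF2-KI RIP libraries were below all 6 controls, which overlapped with each other, and *Klc2* was lower over IgG RIP (-1.30 ± 0.17 (SE), FDR 0.000103) and over input (-1.08 ± 0.16 (SE), FDR 0.000264) on the log2 scale. The call over input was lost without CELF2-KI RIP replicate 3 (-0.99) or input replicate 3 (-0.98). *Klc1*, the main neuronal light chain, was at 397, 391 and 463 CPM in the CELF2-KI RIPs, against 368, 300.3 and 296 with IgG and 214, 222 and 220.4 for input. Its CELF2-KI RIP values exceeded every control, with log2 fold changes of 0.37 ± 0.12 (SE) over IgG RIP and 0.93 ± 0.12 (SE) over input that stayed under 2-fold. *Klc3* was called lower over IgG RIP (-1.87 ± 0.43 (SE), FDR 0.00402) at a level of 0.400, 0.308 and 0.446 CPM in the CELF2-KI RIPs, against 1.63, 1.29 and 1.29 with IgG and 0.715, 1.11 and 0.857 for input, and this call was lost without any 1 of the CELF2-KI RIP libraries or IgG RIP replicate 1 (FDR 0.0115 to 0.0158) and with replicate number in the model (FDR 0.0130). *Klc4* was at -0.51 over IgG RIP with an SE of 0.40.

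For dynein-1, the minus-end motor of the cytoplasm, 0 of 5 chains were called in CELF2-KI RIP over IgG RIP and 1 over input, and the median log2 fold changes were 0.01 and 0.22. *Dync1h1*, the heavy chain that holds the motor domain, was at 4795, 4764 and 5405 CPM in the CELF2-KI RIPs, against 8821, 7719.9 and 8347 with IgG and 2620.5, 2322 and 2745 for input. The 3 groups did not overlap, in the order IgG RIP, CELF2-KI RIP and input from high to low. Its log2 fold change was 1.70 ± 0.11 (SE) in IgG RIP over input (FDR 3.78e-05), 0.96 ± 0.11 (SE) in CELF2-KI RIP over input (FDR 4.64e-05) and -0.73 ± 0.11 (SE) in CELF2-KI RIP over IgG RIP (FDR 0.000277), the last 2 under 2-fold. *Dync1li2*, a light intermediate chain that binds cargo adaptors, was at 215, 334 and 269 CPM in the CELF2-KI RIPs, against 202, 176 and 162 with IgG and 109, 119 and 126 for input. All CELF2-KI RIP libraries exceeded all controls, and the log2 fold change was 1.21 ± 0.16 (SE) over input (FDR 0.000114) and 0.60 ± 0.16 (SE) over IgG RIP. The call of *Dync1li2* over input held in all 9 fits that left out a library and in 6 of 11 other settings. Its paralog *Dync1li1* was lower on average in CELF2-KI RIP, with log2 fold changes of -0.27 ± 0.12 (SE) and -0.31 ± 0.12 (SE) that were not called. The intermediate chains *Dync1i1* and *Dync1i2* overlapped with IgG RIP, with log2 fold changes over IgG RIP of 0.01 and 0.03.

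Dynein-2 moves cargo inside cilia. Its heavy chain *Dync2h1* was at 66.5, 64.6 and 79.3 CPM in the CELF2-KI RIPs, against 141, 125 and 96.7 with IgG and 52.8, 51.6 and 48.8 for input. IgG RIP stood above the other groups, with a log2 fold change over input of 1.24 ± 0.15 (SE) (FDR 0.000323). The light intermediate chain *Dync2li1* was at 6.86 ± 0.622 CPM in the CELF2-KI RIPs, 4.72 ± 1.74 with IgG and 8.53 ± 0.989 for input (mean ± SD, n = 3 each), not called in any comparison. The 6 markers of ependymal and ciliated cells had a median log2 fold change over IgG RIP of -0.82, with 0 called higher and 3 lower, and sums of 80.3 to 96.7 CPM in the CELF2-KI RIPs, 105.1 to 148.5 with IgG and 95.0 to 128.7 for input. Their part in the values of the dynein-2 chains and ciliary kinesins was not tested.

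Of the 9 dynein light chains, 2 were called higher over IgG RIP and 2 lower (22.2% each, beside 13.4% and 13.6% of all tested genes). Over input 1 was higher (11.1%) and 3 lower (33.3%), beside 14.6% and 15.5%. In IgG RIP over input 0 were higher and 4 lower (44.4%), beside 6.79% and 5.0%. The group's median log2 fold changes were -0.32, -0.996 and -1.18 in these comparisons, beside -0.06, 0.19 and -0.004 for all tested genes. *Dynll2* (chr11:87979525-88003817) and *Dynll1* (chr5:115297110-115300990) encode the LC8 light chains, small hub proteins that also join many partners outside dynein. *Dynll2* was at 548, 839.5 and 609.8 CPM in the CELF2-KI RIPs, against 141, 173 and 175 with IgG and 183, 199.6 and 213 for input. Its CELF2-KI RIP libraries were far above all 6 controls, which did not overlap with each other, and it was 4.09-fold higher than IgG RIP (log2 2.03 ± 0.17 (SE), FDR 1.15e-05) and 3.35-fold higher than input (log2 1.74 ± 0.17 (SE), FDR 1.76e-05). The call held in all 9 fits that left out a library and in all 11 other settings against each control. *Dynll1* was at 95.0, 111 and 84.4 CPM in the CELF2-KI RIPs, against 36.1, 46.1 and 53.5 with IgG and 102, 103 and 112 for input. It was higher than IgG RIP (1.10 ± 0.16 (SE), FDR 0.00023) but overlapped with input (-0.13 ± 0.15 (SE)), and IgG RIP was itself below input (-1.22 ± 0.16 (SE), FDR 0.000429). The call over IgG RIP was lost without CELF2-KI RIP replicate 2 (0.99), IgG RIP replicate 1 (0.95) or input replicate 2 (0.99).

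*Dynlrb1*, of the roadblock light chains, was at 9.52, 9.62 and 8.92 CPM in the CELF2-KI RIPs, against 20.6, 23.2 and 26.2 with IgG and 63.9, 59.5 and 81.4 for input. The groups did not overlap, with CELF2-KI RIP lowest and input highest, and the log2 fold change was -1.32 ± 0.16 (SE) over IgG RIP (FDR 8.21e-05), -2.87 ± 0.16 (SE) over input (FDR 9.35e-07) and -1.55 ± 0.15 (SE) in IgG RIP over input (FDR 0.000156). The Tctex1-type chains *Dynlt1a*, *Dynlt1b*, *Dynlt1c* and *Dynlt1f* lie close together on chromosome 17 and are near-identical copies, so the split of reads among them is uncertain. *Dynlt1b* was at 23.0, 17.0 and 15.8 CPM in the CELF2-KI RIPs, against 29.2, 23.7 and 44.9 with IgG and 125, 119 and 148 for input. Both pull-downs were lower than input, at a log2 fold change of -2.81 for CELF2-KI RIP (FDR 1.03e-05) and -2.0 for IgG RIP (FDR 0.00029). *Dynlt1c* had 10, 0 and 0 counts in the CELF2-KI RIPs, against 61, 115 and 133 with IgG and 1817, 2699 and 1732 for input, and was called lower against both controls. Its fitted fold depends on the small count that edgeR adds and is no bound, ranging from -11.2 to -4.28 over IgG RIP on the log2 scale when 1 library was left out. *Dynlt1a* and *Dynlt1f* were not called, at -0.20 and -0.42 over IgG RIP and 0.76 and 0.66 over input. *Dynlt3* was lower in IgG RIP than in input (-1.18, FDR 0.00967), a call close to the threshold that was lost in 7 of 9 fits without a library (all but those without CELF2-KI RIP replicate 1 or IgG RIP replicate 3, FDR 0.0114 to 0.0393) and with replicate number in the model (FDR 0.0222). *Dynlrb2* was under 4 CPM in all libraries.

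Dynactin is the complex that ties dynein to cargo and to microtubules. *Dctn2* (chr10:127266262-127281959), the dynamitin subunit of the shoulder of the complex, was at 55.0, 46.4 and 45.4 CPM in the CELF2-KI RIPs, against 163, 161 and 171 with IgG and 169, 169 and 175 for input. CELF2-KI RIP was below every control and the controls overlapped. *Dctn2* was 3.37-fold lower than IgG RIP (log2 -1.75 ± 0.11 (SE), FDR 5.46e-06) and 3.49-fold lower than input (log2 -1.80 ± 0.11 (SE), FDR 1.11e-06). *Dctn3* (chr4:41714798-41723163), another shoulder subunit, was at 9.44, 10.2 and 6.87 CPM in the CELF2-KI RIPs, against 22.0, 27.9 and 36.0 with IgG and 56.9, 56.3 and 53.6 for input. The groups did not overlap, with log2 fold changes of -1.69 ± 0.21 (SE) over IgG RIP (FDR 8.4e-05) and -2.65 ± 0.21 (SE) over input (FDR 6.42e-06). The calls of *Dctn2* and *Dctn3* held in all 9 fits without a library and in all 11 other settings against each control.

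*Dctn5*, a subunit of the pointed end, was at 66.5, 57.6 and 55.0 CPM in the CELF2-KI RIPs, against 26.5, 31.4 and 30.6 with IgG and 43.8, 44.2 and 47.7 for input. CELF2-KI RIP was above all 6 controls, and the log2 fold change was 1.02 ± 0.13 (SE) over IgG RIP (FDR 8.79e-05) and 0.40 ± 0.12 (SE) over input. The value over IgG RIP lies at the 2-fold threshold and kept its call in 1 of 11 other settings, and without CELF2-KI RIP replicate 1, IgG RIP replicate 1 or input replicate 2 it was 0.93, 0.94 and 0.91. *Dctn4*, also at the pointed end, had 1.14 ± 0.39 (SE) over IgG RIP with an FDR of 0.0304, above the threshold, and ranged from 9.60 to 38.6 CPM within IgG RIP. Without IgG RIP replicate 1, the library at 38.6, it was called at 1.77. *Dctn1*, the subunit that grips the microtubule, was at 266, 293 and 252 CPM in the CELF2-KI RIPs, against 499, 447 and 397 with IgG and 210.4, 189.8 and 242 for input. As for *Dync1h1*, IgG RIP was highest: the log2 fold change was 1.06 ± 0.13 (SE) in IgG RIP over input (FDR 0.000323) and -0.73 ± 0.13 (SE) in CELF2-KI RIP over IgG RIP (FDR 0.000771, under 2-fold). The call in IgG RIP over input was lost without IgG RIP replicate 1 or input replicate 2 (0.98 each), and with version-matched transcripts the value was 0.55 (FDR 0.342). *Dctn6* overlapped with IgG RIP and was lower than input in all 3 libraries, uncalled at -0.42. *Dctn2* and *Kif5a* share 87 bases at their ends on chromosome 10, and the strand setting of the pseudoalignment is not given in the sources used here.

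**Figure D3:**
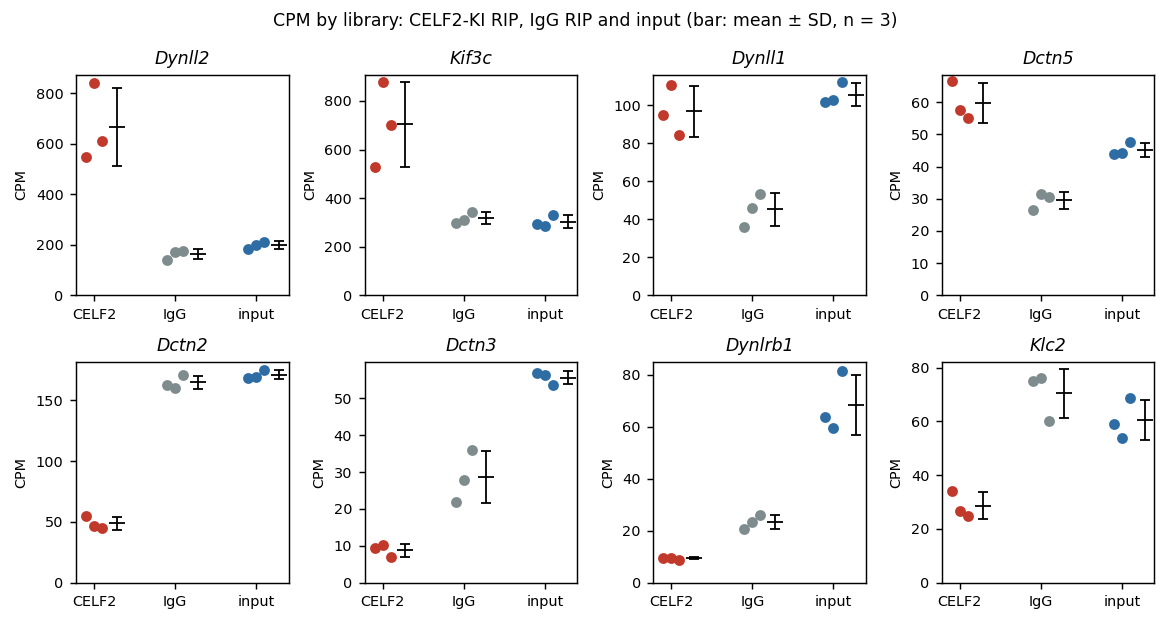
CPM in each library for 8 members called in CELF2-KI RIP over IgG RIP; points are libraries, bars are mean ± SD of 3, and each axis starts at 0. *Dynll2* and *Kif3c* are above all 6 controls, *Dynll1* is above IgG RIP and level with input, *Dctn5* is above both, and *Dctn2*, *Dctn3*, *Dynlrb1* and *Klc2* are below all 6 controls.

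Paralogs were compared by the log2 ratio of their counts within each library, which also does not depend on scaling between libraries. There were 21 pairs in 13 sets. The 3 CELF2-KI RIP libraries did not overlap with IgG RIP in 9 pairs or with input in 14, and the 9 were among the 14. The share among other pairs of genes was not computed, so these counts have no background. Among all tested single genes, 25.2% lay above all 6 controls and 19.9% below. Pairs from a set of 3 also share genes and are not independent. With 3 libraries against 3, the smallest p that the exact two-sided permutation test can give is 0.1, so no pair could pass 0.05. All of the non-overlapping pairs were at that value.

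*Kif5a* to *Kif5c* had log2 ratios of -1.66, -2.33 and -1.80 in the CELF2-KI RIPs, against -0.59, -0.51 and -0.64 with IgG and -0.52, -0.53 and -0.24 for input. The ratio in CELF2-KI RIP was 2.55-fold lower than in IgG RIP and 2.83-fold lower than in input, so within each CELF2-KI RIP library *Kif5c* took a larger share beside its paralog. *Kif5b* to *Kif5c* differed likewise, by -1.12 and -1.20 on the log2 scale, whereas *Kif5a* to *Kif5b* overlapped with both controls. *Klc1* to *Klc2* was at 3.53, 3.87 and 4.22 in the CELF2-KI RIPs, against 2.30, 1.98 and 2.30 with IgG and 1.86, 2.04 and 1.68 for input, 3.21-fold and 4.03-fold higher than in the controls. The ratio of *Dynll1* to *Dynll2* differed by -0.91 and -1.86, and that of *Dync1li1* to *Dync1li2* by -0.85 and -1.50. For *Kif1a* to *Kif1b* the differences were -0.67 and -0.51, for *Kif1a* to *Kif1c* -0.60 and -0.38, and for *Kif3a* to *Kif3c* -0.32 and -0.45. *Kif13a* to *Kif13b* differed in sign between the controls, 0.52 against IgG RIP and -0.26 against input. The intermediate chain pair *Dync1i1* to *Dync1i2* was -0.47 ± 0.24, -0.45 ± 0.09 and -0.51 ± 0.13 (mean ± SD, n = 3) and overlapped in all groups.

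**Figure D4:**
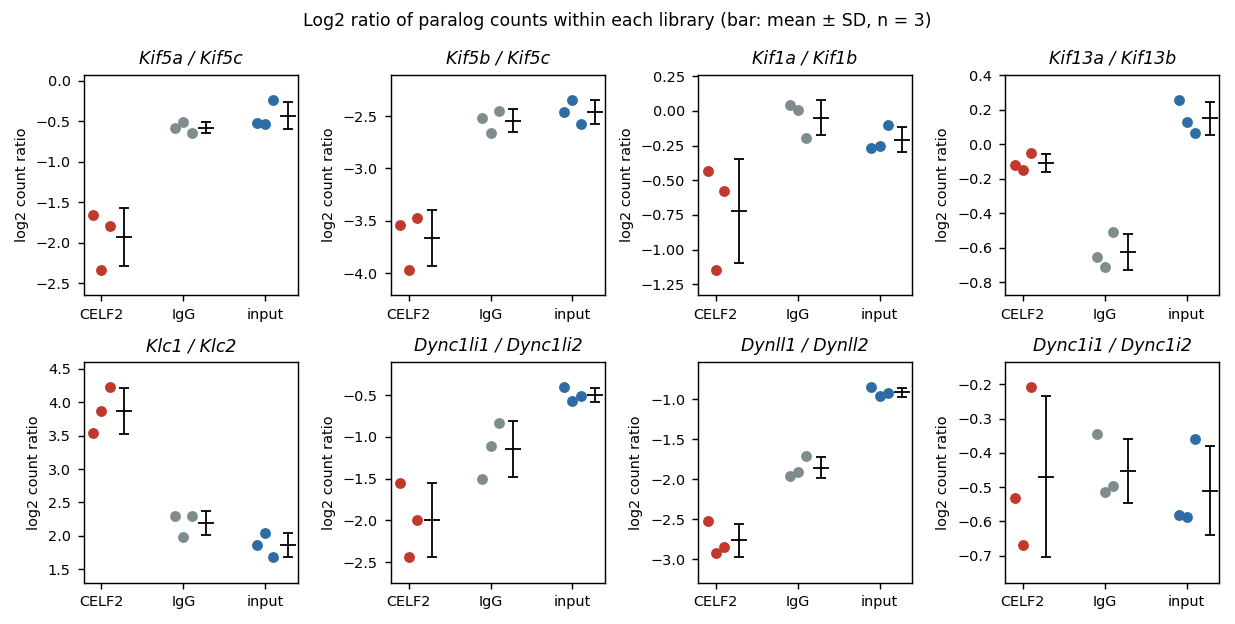
Log2 ratio of the counts of 8 paralog pairs within each of 9 libraries; points are libraries and bars are mean ± SD of 3. The CELF2-KI RIP libraries lie beyond both controls on 1 side in 6 pairs, between the controls for *Kif13a* to *Kif13b*, and among the controls for *Dync1i1* to *Dync1i2*.

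Sums over a gene can hide transcripts that move apart, so transcript use was tested between CELF2-KI RIP and IgG RIP with edgeR's gene-level test on transcript rows. Among 8798 genes with more than 1 transcript passing the filter, 445 (5.06%) had an FDR under 0.01, and 3 of them were members: *Kif5a* (FDR 0.00745), *Kif1a* (FDR 0.00866) and *Kif6* (FDR 0.00878). With replicate number in the model 0 members were called, and without 1 library between 0 (without CELF2-KI RIP replicate 1 or any 1 of the input libraries) and 7 (without IgG RIP replicate 3) were. The counts of single transcripts are kallisto's estimates, which divide reads shared by overlapping models.

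*Kif5a* had 2 transcripts in the table. NM_008447.4 held 10.4%, 13.7% and 11.4% of its counts in the CELF2-KI RIPs, against 25.8%, 25.9% and 23.95% with IgG and 9.07%, 9.26% and 12.1% for input. IgG RIP was the group apart, and CELF2-KI RIP overlapped with input. For *Kif1a*, NM_008440.4 held 17.4%, 18.7% and 12.4% in the CELF2-KI RIPs and 5.86%, 8.58% and 9.24% with IgG, without overlap, and 10.4%, 13.7% and 9.84% for input. *Kif6* was too low for shares to be read, at 1.84 to 7.73 CPM for the whole gene. *Kif1b* was not called (FDR 0.0190) and is named for a transcript chosen after its values were seen: XM_011250200.2, a predicted model, held 0.701%, 0.481% and 0.680% of its counts in the CELF2-KI RIPs, against 9.53%, 10.6% and 9.94% with IgG and 4.63%, 6.46% and 10.2% for input. Its most abundant transcript, NM_001290995.1, held between 26.7% and 43.3% in every library, and the groups overlapped.

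**Figure D5:**
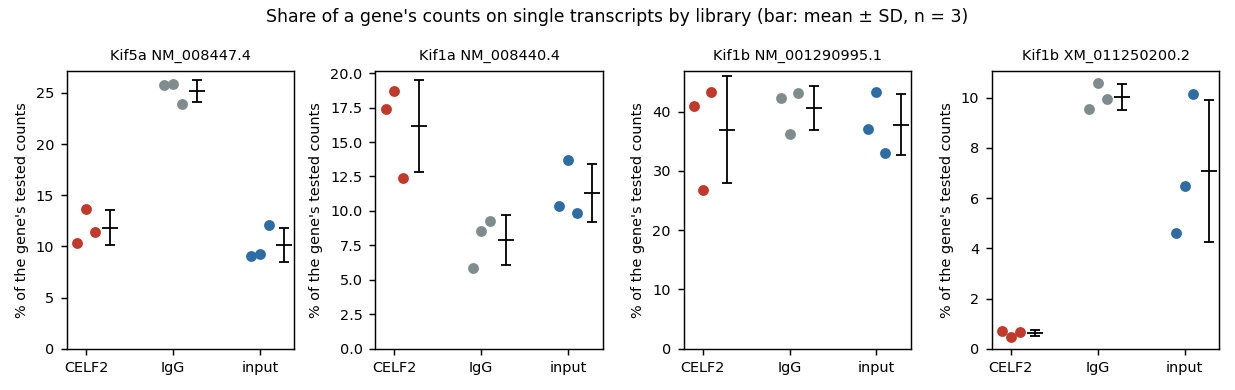
Share of the counts on a gene's tested transcripts that fell on single transcripts of *Kif5a*, *Kif1a* and *Kif1b* in each library; points are libraries and bars are mean ± SD of 3. IgG RIP stands apart at 23.95% to 25.9% for *Kif5a* NM_008447.4, and CELF2-KI RIP is lowest, under 0.71%, for *Kif1b* XM_011250200.2.

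Motors work with adaptors and regulators, and a list of 41 genes outside the symbol rule was read beside the members. Besides adaptors and regulators it held the kinesins *Kifc1*, *Kifc2*, *Kifc3* and *Cenpe*. It also held *Actr1a*, *Actr1b*, *Actr10*, *Capza1*, *Capza2* and *Capzb* of dynactin. Of the 39 tested, 6 were called higher and 6 lower in CELF2-KI RIP over IgG RIP. These shares were 15.4% each, beside 13.4% and 13.6% of all tested genes. The median log2 fold change was -0.04. Against both controls 3 were higher (7.69%) and 4 lower (10.3%), beside 7.58% and 9.54% of all tested genes. As a list these genes were thus near the background. Among the higher were *Pafah1b1*, which encodes the dynein regulator LIS1 (569.8, 701 and 633 CPM in the CELF2-KI RIPs, against 283, 270.3 and 311 with IgG and 269, 291 and 248 for input), with no overlap and a log2 fold change of 1.14 ± 0.11 (SE) over IgG RIP (FDR 2.62e-05) and 1.23 ± 0.11 (SE) over input (FDR 1.51e-05). The lysosomal adaptor *Arl8a* and the kinesin and dynein scaffold *Spag9* were the other 2, at 1.60 and 1.17 over IgG RIP. The 4 lower were *Nde1*, a partner of LIS1 (-1.16), the kinesin-1 scaffold *Mapk8ip1* (-1.29), and *Actr1b* (-1.19) and *Capzb* (-1.12), which encode parts of the actin-like filament of dynactin. *Capza1* and *Capza2*, which encode the partner subunit of *Capzb*, were called higher over IgG RIP (1.37 and 1.19) and not over input (0.69 and 0.69), and *Arl8b*, *Mapk8ip2* and *Spdl1* were called over IgG RIP alone at 1.52, -1.77 and -1.90.

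Marker lists of the other cells in the lysate were read in the same way. Among all tested genes 13.4% were called higher and 13.6% lower over IgG RIP. Those of radial glia and intermediate progenitors had a median log2 fold change over IgG RIP of -0.40, with 0 called higher and 4 lower of 10, and summed to 524 to 987 CPM in the CELF2-KI RIPs, 779 to 867 with IgG and 1191 to 1393 for input. For inhibitory neurons the median was 0.58 (2 higher and 1 lower of 8) with sums of 609 to 744 CPM in the CELF2-KI RIPs, 384 to 429 with IgG and 578 to 597 for input. Erythroid markers were lowest, with a median of -2.21 (0 higher and 5 lower of 5) and sums of 92.7 to 95 CPM in the CELF2-KI RIPs, 366 to 584 with IgG and 877 to 1135 for input. Microglia and macrophages had -1.57 (1 higher and 3 lower of 7) and sums of 95.5 to 132 CPM in the CELF2-KI RIPs, 69.3 to 96.9 with IgG and 166 to 211 for input, and endothelium had -0.00 (0 higher and 1 lower of 6) and sums of 176 to 257 CPM in the CELF2-KI RIPs, 162 to 364 with IgG and 213 to 336 for input. Of the defining microglial markers *P2ry12* did not pass the filter, and *Csf1r* was at 0 in all input libraries. Their part in the motor values was not tested.

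Genomic span, the distance between a gene's first and last base, was read as a property that the rule did not use. Its median was 46.6 kb for transport kinesins, 45.5 kb for mitotic kinesins, 51.6 kb for dynein-1 chains, 17.2 kb for dynactin, 13.1 kb for kinesin light chains and 10.9 kb for dynein light chains, beside 24.6 kb for all tested genes. Members called higher over input had a median span of 65.5 kb and those called lower 10.8 kb, beside 37.8 kb and 9.80 kb for all genes called. Across the 61 members Spearman's rho between span and log2 fold change was 0.18 over IgG RIP, 0.48 over input and 0.52 in IgG RIP over input, beside 0.20, 0.28 and 0.24 across all tested genes. These are descriptions across genes of the same libraries.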

How the data were processed

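RNA was measured in 3 CELF2-KI RIP, 3 IgG RIP and 3 input libraries, grouped by the sample titles. The authors trimmed reads with fastp 0.23.4, removed rRNA reads with Ribodetector 0.3.1 and pseudoaligned them with kallisto 0.51.1. They deposited estimated counts per transcript, not normalized. The submitters' processing notes name mm10. All columns were used (0 left out). Of 107384 rows, 86722 were matched by accession without version to a RefSeq table (GRCm38.p6) and the rest were left out. For each gene the estimated counts of its transcripts were added and the sum was rounded.

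Protein-coding genes that reached 0.5 CPM in 3 or more libraries were tested with edgeR 4.0.16 in R 4.3.3 (limma 3.58.1): TMM, a mean per condition over all 9 libraries and glmQLFTest, with diffSpliceDGE for transcripts of tested genes. The common biological coefficient of variation was 0.221. DESeq2 1.42.0 served as an alternative, and ratios were tested by exact permutation with scipy 1.17.1. Groups of at most 3 counts were treated as at the floor. Members, lists (motor adaptors and regulators and 8 cell type lists), groups and tests were chosen with earlier results of these data known. Named are the members called against both controls, the called members of each group, and in groups with at most 3 called the most abundant and the extremes over IgG RIP, the paralog sets and members with differing transcript use; any other is named as such. Alternatives were other scalings, filters, tests, sample sets, transcript matching, a replicate term and leaving out each library.

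The labels call the replicates biological; those of a group differed by more than sampling noise (chi-square per gene 12.2 to 46.0). Molecular identifiers are not given in the sources used here. Same-numbered libraries were compared by the correlation of their deviations from the group means over 11534 genes, for numbers 1, 2 and 3: for the CELF2-KI RIPs with input 0.179, 0.156 and 0.246, for the CELF2-KI RIPs with IgG RIPs -0.133, 0.0696 and -0.0592, and for the IgG RIPs with input 0.127, 0.122 and 0.0485. Same-numbered values exceeded all those of unlike numbers for CELF2-KI RIP with input (at most -0.0389) and for IgG RIP with input (at most 0.00217). All were weak, at 0.246 or less, and the labels do not pair libraries. The steps were tested on simulated counts of 15086 genes. The calls against both controls held 46 of 50 genes set 4-fold up and 35 of 50 set 2.8-fold up. They also held 38 of 50 lowered to 0.25 and 36 of 50 lowered to 0.357 of their level, and 0 of 14886 unchanged genes. Genes were raised and lowered in equal numbers, and the rest had the same mean in all groups. The simulation therefore could not show errors of scaling between libraries.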

Additional observations from a re-analysis of the deposited data

How the results depend on the processing

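The number of members called changed with the scaling, the test, the transcripts matched and the libraries used. Over IgG RIP, 1 member was higher under TMMwsp, upper quartile and total-count scaling and under glmTreat (a test against a 2-fold change), and 14 were lower under total counts and 3 under glmTreat. Over input, 5 were higher under TMMwsp, upper quartile or a fit of only the 2 conditions, 2 under total counts and 1 under glmTreat, and 10 were lower under TMMwsp, upper quartile or DESeq2's Wald test, 12 under total counts and 13 with only the 2 conditions. Against both controls, 1 was higher under TMMwsp, upper quartile, total counts, glmTreat or only the 2 conditions. There 9 were lower under TMMwsp and upper quartile, 10 under total counts and 3 under glmTreat. The matching split of all tested genes was not computed. In IgG RIP over input, 1 member was higher and 0 lower under glmTreat, and 3 higher with version-matched transcripts. Across all 15267 tested genes the split over IgG RIP was 2050 higher and 2069 lower. It was 1363 and 2816 under TMMwsp, 1212 and 3017 under upper quartile, 937 and 3421 under total counts and 545 and 622 under glmTreat. Over input it was 2226 and 2366, against 1228 and 2914, 1177 and 2964, 531 and 3581, and 339 and 1117 in the same order. It was 1420 and 3295 with only the 2 conditions, and 2827 were lower under DESeq2's Wald test. In IgG RIP over input it was 1037 and 764, against 100 and 53 under glmTreat. With version-matched transcripts 545 of 12902 were higher there. Of 133 lost calls, 75 kept an FDR under 0.01 and missed only the fold. The other losses include those under glmTreat, whose test itself requires a change beyond 2-fold. The cause of the rest was not tested.

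Replicate number as a block pairs the same-numbered libraries of all groups. It left 0 members with differing transcript use and ended the calls of *Klc3* over IgG RIP and of *Dynlt3* in IgG RIP over input. It moved no other count of members by over 1.5 times.

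Group medians are given relative to the median of all tested genes. With version-matched transcripts only, they were, over IgG RIP, -0.56 for mitotic and -0.074 for other kinesins, -3.99 for kinesin light chains, -3.27 for dynein-2 and -1.16 for dynactin, and over input 0.64 for transport, -0.88 for mitotic and 0.20 for other kinesins, -3.61 for kinesin light chains, 0.10 for dynein-1, 0.66 for dynein-2 and -0.80 for dynactin; fewer rows are kept there. Other kinesins were at 0.10 over input without a filter, and kinesin light chains at -0.51 and -0.65 over IgG RIP and input with a 2 CPM filter. With version-matched transcripts *Kif6* reversed to 7.20 over IgG RIP and *Dynlt1f* to -7.62 over input.

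Leaving out each library gave 2 to 4 members higher and 5 to 10 lower over IgG RIP, 8 to 15 higher and 5 to 9 lower over input, 1 to 3 higher and 4 to 6 lower against both controls, 5 to 8 higher and 3 to 6 lower in IgG RIP over input, and 0 to 7 with differing transcript use. Over IgG RIP, 2 members were higher without CELF2-KI RIP replicate 2 or input replicate 2. Without CELF2-KI RIP replicate 2 or IgG RIP replicate 1, 5 were lower. Of all tested genes, 1712 and 1677 were higher in the former fits, and 1783 and 1999 lower in the latter. Over input, 8 members were higher without input replicate 2 and 9 lower without CELF2-KI RIP replicate 1. Of all tested genes, 1535 were higher and 2406 lower in those fits. Against both controls, 1 member was higher without CELF2-KI RIP replicate 2. Relative medians over IgG RIP ranged from 0.46 to 0.69 for transport, -0.69 to -0.085 for mitotic (the last without IgG RIP replicate 2) and -0.56 to -0.34 for other kinesins, -1.03 to -0.76 for kinesin light chains, -0.089 to 0.28 for dynein-1, -0.19 to 0.027 for dynein-2, -0.46 to -0.10 for dynein light chains and -0.32 to -0.15 for dynactin. Over input they ranged from 0.71 to 0.85, -0.80 to -0.37, -0.020 to 0.14, -1.10 to -0.85, -0.034 to 0.12, -0.17 to -0.04, -1.25 to -1.03 and -0.32 to -0.14 in the same order. Depth limits *Klc3*, with 5, 4 and 5 counts in the CELF2-KI RIPs, and *Dynlt1c*, with 10, 0 and 0.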
